A study of Homo sapiens with 15 samples.

Results

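The genes described here are 38 genes of homologous recombination, the repair route that carries BRCA1 and BRCA2. They were taken from a fixed list of gene symbols, and all 38 were found among the 30992 genes that the arrays measure. They were read by 57 probes, each of 60 bases: 25 of the genes had 1 probe and 13 had several. The arrays list 36 of them under their current symbol, MRE11 as MRE11A and PALB2 as FLJ21816.

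Homologous recombination repairs a double-strand break by copying the intact sister DNA, which is why it works after the DNA has been replicated. Damage sensors hold the broken ends and trim them, the single strand that this leaves is coated by replication protein A, and BRCA1, BARD1, PALB2 and BRCA2 ready it for the search for the matching sequence. Checkpoint kinases stop the cell cycle meanwhile, and the Fanconi anaemia proteins feed crosslinked DNA into the same route. Inherited defects in BRCA1 or BRCA2 predispose to breast and ovarian cancer, and BRCA1 is a gene that CtBP corepressors are known to bind and repress.

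The RNA came from MDA-MB-231, a human triple-negative breast cancer cell line of mesenchymal character. It was measured on 15 arrays in 3 groups of 5 biological replicates: cells in which a stably transfected short hairpin RNA targets the corepressor CtBP2 (shCtBP2, kept by puromycin selection), cells collected 24 h after HIPP, and cells collected 24 h after P4. HIPP and P4 are small molecules used as CtBP inhibitors, and differ in that HIPP carries an oxime where P4 carries a hydrazone on the same phenylpropanoate. Each array set treated RNA (Cy5) against control RNA (Cy3), with no exchange of dyes. The labels give untreated MDA-MB-231 cells as the control on every array, while the methods also describe a scrambled hairpin for shCtBP2. A value is therefore the log2 ratio of treated over control signal, averaged over the probes of a gene. Tested against 0, such a ratio cannot be told apart from a bias of the gene towards one dye. The comparison of a compound with shCtBP2 takes out a dye effect common to all arrays. The array doses of HIPP and P4 are not given in the labels and the methods use different doses for each, so the values of both compounds are set side by side and their difference was not tested.

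The target of the hairpin, CTBP2, was lower on 5 of 5 shCtBP2 arrays (log2 ratio -0.41 ± 0.11, SD, n = 5), and this did not pass the test over all genes (limma, adjusted p = 0.0595). It was higher with HIPP (0.57, adjusted p = 0.00256), and 0.17 with P4 (adjusted p = 0.344). Of the line's markers, VIM, CD44 and EGFR were above background on all 15 arrays, PGR and CDH1 were so on 0 arrays, ESR1, EPCAM and KRT19 were above background on some or all arrays, and the blood cell marker PTPRC on 0 or 1 of 5 per group and channel. The arrays lay on 4 slides. P4 replicates 1 to 4 lay on slide 1, which was scanned on another day. P4 replicate 5 and HIPP replicates 1 to 3 lay on slide 2, HIPP replicates 4 and 5 with shCtBP2 replicates 1 and 2 on slide 3, and shCtBP2 replicates 3 to 5 on slide 4. Per array and channel, 64.9 to 81.0% of 43376 spots with gene probes exceeded their background clearly, the criterion of the scanner software that is called above background here. In both channels, 37 of the 38 genes were so on all arrays; the exception was DMC1, a recombinase of meiosis.

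Fewer recombination genes passed when CtBP2 was knocked down than with the compounds, as was the case for all genes, and most that passed were lower. With shCtBP2, 4 of the 30 genes tested passed the adjusted threshold of 0.05 (13.3%), beside 13.5% of all genes tested; here and in the other groups the 11% of genes whose signals had the narrowest interquartile range in a treatment were not tested, following the study's methods. With HIPP, 19 of 33 passed (57.6%), beside 48.7% of all genes, and with P4 12 of 34 passed (35.3%), beside 31.9%. The unpaired test of both channels that the methods name left 4 with HIPP (RAD50, NBN, ATR and RPA1; 18.6% of all genes passed), 1 with P4 (RAD50; 4.61%) and 3 with shCtBP2 (all but PALB2; 6.99%) after adjustment. The shares are thus close to those of all genes. The direction was less even: with HIPP 14 genes were lower and 5 higher (42.4% and 15.2% of those tested), while 23.9% and 24.9% of all genes were; with P4 8 were lower and 4 higher (23.5% and 11.8%), against 14.8% and 17.1% of all genes. With shCtBP2 3 were lower and 1 was higher (10% and 3.33%, against 6.95% and 6.59%). The median log2 ratio of the tested members was -0.04 with shCtBP2, -0.26 with HIPP and -0.13 with P4, where the medians of all genes tested were 0.04, 0.08 and 0.11.

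The direction of calls depended on the scaling of the signals. From mean signals with neither background nor dye correction, the median of all genes fell to -0.22 with shCtBP2, -0.39 with HIPP and -0.26 with P4, and the calls among the 38 genes became 0 higher and 23 lower with HIPP, 0 and 2 with P4, and 0 and 1 with shCtBP2. On that scaling 72%, 45.1% and 39.4% of all genes tested passed with HIPP, P4 and shCtBP2, and 70.4%, 43.3% and 38.9% were lower. The recombination genes were thus close to the share of all genes with HIPP (23 of 33). They were far below it with P4 (2 of 34) and shCtBP2 (1 of 30). The changes were also small. Past the fold change that the methods set beside the adjusted threshold, RAD52 was the only gene with shCtBP2 (threshold 1.5-fold, passed by 6.57% of all genes). With HIPP (2.5-fold) and P4 (1.8-fold) limma called 0 genes, also at an unadjusted p under 0.05, where 7.05% and 8.46% of all genes passed. Of the 37 genes tested in any treatment, 25 passed the adjusted threshold in at least 1 (67.6%, beside 56% of all genes), 9 in at least 2 (24.3%, beside 24.7%) and EXO1 in all 3 (2.7%, beside 3.99%).

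**Figure D1:**
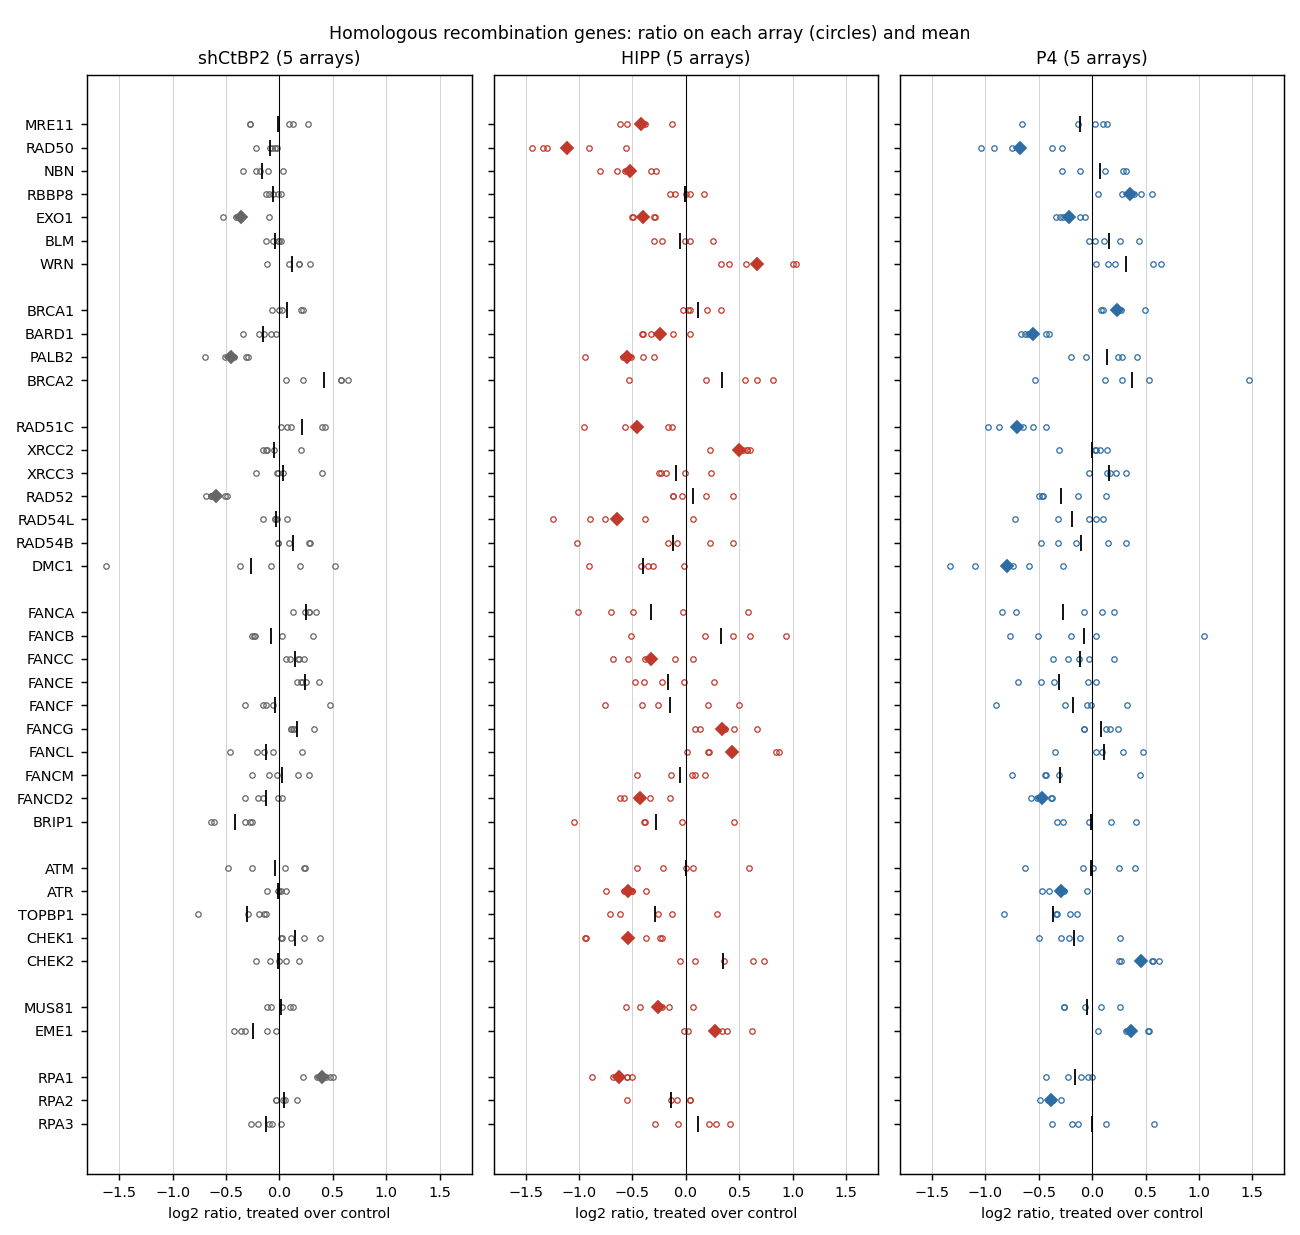
Log2 ratio of treated over control signal of the 38 recombination genes, grouped by role, with 1 circle for each of the 5 arrays of a treatment. Diamonds mark means past limma's adjusted p of 0.05 and short bars mark the other means. RAD50 and RPA1 lie well to the left with HIPP (means -1.11 and -0.63), and RPA1 lies to the right with shCtBP2 (0.40).

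BRCA1, the ubiquitin ligase that steers breaks into recombination, stayed near its control level. Its log2 ratios were 0.20, 0.22, 0.02, -0.07 and 0.00 on the shCtBP2 arrays, 0.20, 0.33, 0.02, -0.03 and 0.04 with HIPP, and 0.10, 0.49, 0.08, 0.27 and 0.23 with P4. The P4 values all lay above 0, while those of shCtBP2 and HIPP straddled it. The means were 0.07 ± 0.13, 0.11 ± 0.15 and 0.23 ± 0.17 (SD, n = 5 each). For shCtBP2 and HIPP the gene was among those left out of the tests for their narrow range of signals, and with P4 it passed narrowly at 117.5% of control (adjusted p = 0.0485, 95% interval of the log2 ratio 0.05 to 0.41). This call was lost without P4 replicate 2, 4 or 5 (adjusted p = 0.159, 0.115 and 0.106), with only the P4 arrays in the fit (0.195), with each array's median set to 0 and no dye correction (0.0977), and without the interquartile filter (0.0513). The BRCA1 probe lies on the minus strand at chr17:38449948-38450007 of build hg17 and was printed in 10 spots, whose SD within an array had a median of 0.04, so that the arrays differed by more than the spots.

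BRCA2, which acts on the single-stranded DNA of trimmed ends, had the widest spread of this complex. Its log2 ratios were 0.58, 0.58, 0.06, 0.22 and 0.64 with shCtBP2, 0.19, 0.67, -0.53, 0.82 and 0.55 with HIPP, and 1.47, 0.12, -0.54, 0.28 and 0.53 with P4. All shCtBP2 arrays and 4 of 5 in each compound group were above 0. The means of 0.42 ± 0.26, 0.34 ± 0.54 and 0.37 ± 0.73 (SD, n = 5) did not pass (adjusted p = 0.254, 0.228 and 0.218), except with only the shCtBP2 arrays in the fit (0.0463). Its probe at chr13:31870996-31871055 (hg17) also had 10 spots, with a median SD of 0.07. Among the partners of both, BARD1, which pairs with BRCA1, fell with HIPP (-0.24 ± 0.19, adjusted p = 0.0276) and with P4 (-0.55 ± 0.12, adjusted p = 0.000289). PALB2, the bridge between BRCA1 and BRCA2, fell with shCtBP2 (-0.45 ± 0.17, adjusted p = 0.0143) and HIPP (-0.55 ± 0.24, adjusted p = 0.00076), and was 0.14 with P4, where it was not tested. PALB2 lost its shCtBP2 call without replicate 2 or 4 (adjusted p = 0.0702 and 0.0542) and with normexp and loess (-0.24, 0.0718, with -0.32 and 0.00445 for HIPP). BARD1 lost its HIPP call without replicate 2, 3 or 4 (0.0996, 0.0986 and 0.0708) and with only the HIPP arrays in the fit (0.144). With each array's median set to 0 and no dye correction BARD1 was at -0.40 with HIPP (adjusted p = 0.00162).

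Of the sensors and end-trimming genes, 5 of 7 passed with HIPP, 4 lower and 1 higher, 3 of 6 with P4 and 1 of 6 with shCtBP2, the order that all genes followed (48.7%, 31.9% and 13.5%). RAD50, the coiled-coil ATPase that tethers broken ends together with MRE11 and NBN, gave -0.56, -1.34, -0.91, -1.30 and -1.44 with HIPP and -1.04, -0.38, -0.28, -0.75 and -0.92 with P4, against -0.22, -0.07, -0.02, -0.04 and -0.09 with shCtBP2. Every HIPP and P4 array lay below every shCtBP2 array. RAD50 thus fell to 46.3% of control with HIPP (-1.11 ± 0.37, adjusted p = 7.08e-06) and to 62.6% with P4 (-0.68 ± 0.33, adjusted p = 0.00147), and was -0.09 ± 0.08 with shCtBP2 (adjusted p = 0.725). With the signals corrected by normexp and loess (a fitted background and a dye curve per array) it was at -0.42 and -0.35 (adjusted p = 0.00664 and 0.0259). From its brightest probe alone RAD50 was at -0.51 with HIPP (adjusted p = 0.0414) and did not pass with P4 (-0.22, adjusted p = 0.4).

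The complex's other members fell with HIPP too. MRE11, its nuclease, had a mean of -0.42 ± 0.19 (adjusted p = 0.0107) and NBN, its signalling subunit, -0.52 ± 0.22 (adjusted p = 0.000764), both lower on 5 of 5 arrays, but for each the brightest probe alone gave a ratio above 0 (0.18 and 0.23). The remaining MRE11 probe, above background on 0 arrays, was at 0.47, and without dim spots the MRE11 mean was -0.86 (adjusted p = 8.96e-06), while normexp and loess gave -0.18 (0.0306) and the median setting -0.79 (5.06e-05). EXO1, the exonuclease that lengthens the single strand, gave -0.10, -0.41, -0.39, -0.53 and -0.37 with shCtBP2, -0.30, -0.50, -0.49, -0.41 and -0.29 with HIPP, and -0.30, -0.11, -0.07, -0.34 and -0.27 with P4. It was below 0 on all 15 arrays. The means were -0.36 ± 0.16, -0.40 ± 0.10 and -0.22 ± 0.12 (adjusted p = 0.00817, 0.000784 and 0.0482), and the P4 call was lost without P4 replicate 1, 2, 4 or 5 (adjusted p = 0.0974, 0.0541, 0.15 and 0.127), as well as with the median setting (0.103) and without the interquartile filter (0.051).

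RBBP8 (CtIP, the CtBP-interacting protein), needed to begin end trimming, rose with P4 (0.35 ± 0.20, adjusted p = 0.00529; 0.0883 with only the P4 arrays in the fit). It was -0.06 with shCtBP2 and -0.01 with HIPP. The helicase WRN rose with HIPP (0.67 ± 0.33, adjusted p = 0.000363), although uncorrected mean signals put it at -0.05, above the median of all genes on that scaling. WRN was above 0 on 5 of 5 P4 arrays without passing (0.32, adjusted p = 0.0538). It passed there with normexp and loess (0.29, adjusted p = 0.0409) and without dim spots (0.32, 0.0361), among other settings. BLM, the helicase that dissolves recombination intermediates, passed in none (-0.04, -0.05 and 0.16).

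Several of these means combine probes that moved apart. For MRE11 and RAD50 the probe nearer the 5′ end of the transcript and the one nearest its 3′ end are shown here by their first 30 of 60 bases, since the value of the gene depends on which is read; capitals are not used.
MRE11 5′ probe: gatgggtgaagcagtacaagaatttgtgga
MRE11 3′ probe: agggtgataaatctctccagctaattcagg
RAD50 5′ probe: ttgcacatgctctggttgagataataaaaa
RAD50 3′ probe: ccaagtcacacgcttttgaattatgctttg
The MRE11 probes lie on the minus strand of hg17 at chr11:93832304-93832363 and chr11:93791059-93791118, 41245 bases apart, and those of RAD50 on the plus strand at chr5:132004378-132005809, which spans an intron, and chr5:132006974-132007033. The 3′ probe of MRE11 gave -1.62, -2.15, -1.82, -1.65 and -2.25 with HIPP, where the 5′ probe gave -0.04, 0.18, -0.24, 0.68 and 0.31. The ranges were far apart on every array. Alone, the 3′ probe was at 26.8% of control (-1.90 ± 0.29, adjusted p = 2.81e-08 over all probes tested), and the 5′ probe did not pass (0.18 ± 0.35, adjusted p = 0.294). The probes tested were those above background in either channel on at least 3 arrays of the treatment. For RAD50 the 3′ probe was at -1.72 ± 0.37 with HIPP and -1.14 ± 0.27 with P4, and the 5′ probe at -0.51 ± 0.54 and -0.22 ± 0.56.

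Where a gene had probes at separate positions, the 3′-most minus the 5′-most ratio was fitted where the RefSeq table gave the gene's strand and at least 2 probes lay on it that were above background on at least 3 arrays of each treatment. FANCC and FANCF, with 1 probe on their own strand, NBN (0.23 and -1.28 from 5′ to 3′ with HIPP), RAD54B (0.51 and -0.75) and DMC1 (0.09 and -0.89) did not meet this and were left out. With HIPP the difference passed for 5 of the 8 recombination genes fitted, beside 67.2% of 4098 genes, so that probes of a gene differed throughout the array. The 3′ probe was the lower one in MRE11 (difference -2.08), RAD50 (-1.21), FANCM (-0.99) and FANCD2 (-0.79) and the higher one in BRIP1 (2.02). Over all 4098 genes, the 3′ probe was lower in 43.7% and higher in 23.5%, with a median difference of -0.21. With P4 it passed for 4 of 8 (43.2% of all genes, median 0.04): RAD50 (-0.92), FANCD2 (-0.79), XRCC2 (-0.65) and MRE11 (-0.55), all with the 3′ probe lower, as it was in 20.7% of all genes. With shCtBP2 limma called 0 of 8 (1 at an unadjusted p under 0.05; 10.8% of all genes passed, median 0.01). The difference was itself larger with HIPP than with shCtBP2 for MRE11 (-2.26, adjusted p = 2.20e-06) and BRIP1 (2.11, adjusted p = 1.03e-05), as well as RAD50 (-0.83, adjusted p = 0.0304) and FANCD2 (-0.60, adjusted p = 0.0158), and the same test passed for 43.9% of all genes. Between P4 and shCtBP2 it passed for XRCC2 (-1.05, adjusted p = 0.0351), MRE11 (-0.73, 0.0334) and FANCD2 (-0.61, 0.036). RAD50 (-0.54, adjusted p = 0.216) and the other genes fitted did not pass there. Read as single probes, 31 of 55 probes of recombination genes passed with HIPP (56.4%, beside 57.5% of all probes tested), 19 of 55 with P4 (34.5%, beside 40.3%) and 5 of 54 with shCtBP2 (9.26%, beside 17.3%).

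**Figure D2:**
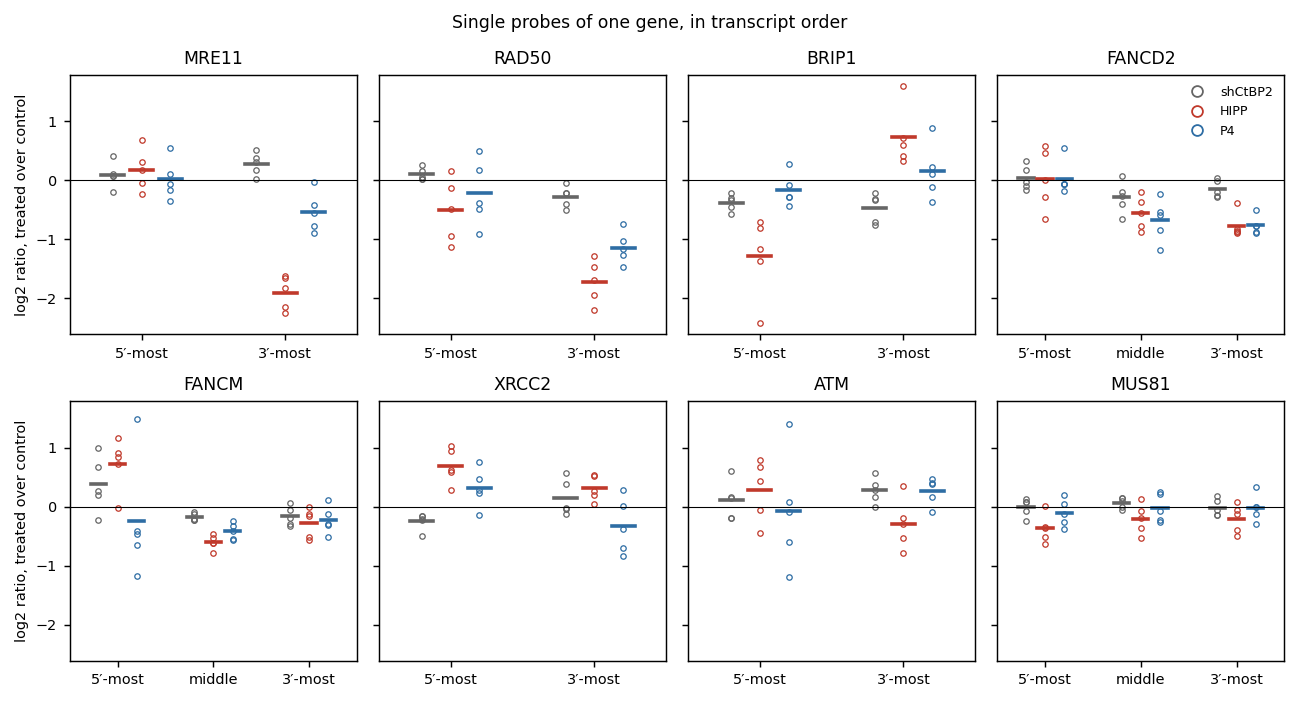
Log2 ratio of treated over control signal of single probes in the 8 recombination genes whose 3′ minus 5′ difference was fitted, in transcript order from the 5′ end, with 1 circle per array and a bar at the mean of 5 arrays. With HIPP the MRE11 probes lie at 0.18 (5′) and -1.90 (3′), and those of BRIP1 at -1.29 (5′) and 0.73 (3′).

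Among the genes of strand annealing and exchange, 1 of 5 passed with shCtBP2, 3 of 6 with HIPP and 2 of 6 with P4, beside 13.5%, 48.7% and 31.9% of all genes. RAD52, which anneals complementary single strands, gave -0.64, -0.49, -0.64, -0.51 and -0.69 with shCtBP2, 0.19, -0.04, -0.12, -0.12 and 0.44 with HIPP, and -0.13, 0.13, -0.46, -0.47 and -0.50 with P4. All shCtBP2 arrays were low, and only 1 P4 array reached into their range. With shCtBP2 RAD52 fell to 66.3% of control (-0.59 ± 0.09, adjusted p = 0.00232), while its ratio was 0.07 ± 0.24 with HIPP (adjusted p = 0.613) and -0.29 ± 0.28 with P4 (adjusted p = 0.0536). Its mean with shCtBP2 lay next to the 1.5-fold threshold, and it stayed past it without replicate 2 or 4 and fell short without replicate 1, 3 or 5. The P4 ratio of RAD52 passed with the median setting (-0.34, adjusted p = 0.0283) and without dim spots (-0.29, 0.0348), among other settings. The RAD52 probe lies at chr12:892429-892488 (hg17, minus strand).

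RAD51C, which acts in strand exchange and is a breast and ovarian cancer gene, fell with HIPP (-0.46 ± 0.33, adjusted p = 0.00551) and P4 (-0.70 ± 0.23, adjusted p = 0.000666), lower on 5 of 5 arrays of each. It was above 0 on 5 of 5 shCtBP2 arrays (0.21 ± 0.20), where it was not tested. XRCC2, which acts at the same step, rose with HIPP (0.50 ± 0.15, adjusted p = 0.000257); from uncorrected mean signals it was at -0.15, above the median of all genes there (-0.39), and from its brightest probe at 0.31 (adjusted p = 0.103), and normexp and loess gave 0.28 (0.00342). RAD54L, a motor that opens the partner duplex, fell with HIPP (-0.64 ± 0.50, adjusted p = 0.00319), and its mean was -0.97 on slide 2 and -0.16 on slide 3. DMC1 was called lower with P4 (-0.80 ± 0.42, adjusted p = 0.018), where it was well above background on 1 of 5 treated and 4 of 5 control channels; the call was lost without replicate 4 or 5 (adjusted p = 0.0653 and 0.0792), from the brighter probe (-0.50, adjusted p = 0.161) and with normexp and loess, where the ratio was -0.07 (0.213). XRCC3 and RAD54B passed in none; with HIPP the RAD54B probes stood at 0.51 and -0.75, the second printed in 10 spots and past the threshold alone (adjusted p = 0.000197 over all probes).

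Of the Fanconi anaemia genes, 0 of 9 passed with shCtBP2 (limma; 1 at an unadjusted p under 0.05, BRIP1 at -0.42 ± 0.19), 4 of 10 with HIPP and 1 of 10 with P4, beside 13.5%, 48.7% and 31.9% of all genes. FANCD2, the protein whose ubiquitination switches the pathway on, fell with both compounds: -0.43 ± 0.19 with HIPP (adjusted p = 0.000627) and -0.47 ± 0.08 with P4 (adjusted p = 0.0008), lower on all 10 arrays. Its 5′-most probe did not move (0.03 with each compound), while the others were at -0.55 and -0.77 with HIPP and -0.68 and -0.76 with P4. Normexp and loess gave -0.28 with HIPP (adjusted p = 0.000851). FANCL, the ligase that adds this ubiquitin, and FANCG, of the core complex, rose with HIPP (0.43 ± 0.40, adjusted p = 0.0223, and 0.34 ± 0.24, adjusted p = 0.0063), and from uncorrected mean signals they stood at -0.29 and -0.32, below 0 and above the median of all genes (-0.39). FANCG did not pass with only the HIPP arrays in the fit (adjusted p = 0.0706). FANCC, also of the core complex, was lower with HIPP as a mean over probes (-0.33 ± 0.31, adjusted p = 0.0213). The FANCC probe on the gene's own strand was at -1.25 ± 0.61, and the others, annotated on the opposite strand, at -0.42 ± 0.16 and 0.69 ± 0.51. The FANCC call was lost without HIPP replicate 1, 2 or 3 (adjusted p = 0.0919, 0.0553 and 0.0835) and the FANCL call without replicate 2 or 5 (0.0986 and 0.112) and with the median setting (0.28, 0.113). Ratios of FANCA, FANCB, FANCE, FANCF, FANCM and BRIP1 did not pass with any treatment as means over probes, and ran from -0.42 to 0.33. The FANCM probes again stood apart: with HIPP 1 was at -0.60 ± 0.12 (adjusted p over all probes 1.10e-05), another at -0.28 ± 0.25 (0.0408) and the third at 0.72 ± 0.45 (0.0441), and the first was at -0.42 ± 0.13 with P4 (0.000764). The FANCF probe on the gene's own strand was higher with shCtBP2 (0.54 ± 0.36, adjusted p = 0.0499) and P4 (0.48 ± 0.20, adjusted p = 0.0431), where a dim probe annotated on the opposite strand was at -0.62 and -0.84.

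BRIP1, the helicase that binds BRCA1, had a mean of -0.28 ± 0.55 with HIPP that rested on opposite probes, shown by their first 30 bases.
BRIP1 5′ probe: cctaatttttatgtagatacttctatatga
BRIP1 3′ probe: atgacctagctgaaactgatagaggaaata
They lie on the minus strand of hg17 at chr17:57117517-57117576 and chr17:57115690-57115749. With HIPP the 5′ probe gave -1.37, -0.80, -2.41, -1.17 and -0.70 and the 3′ probe 0.59, 0.72, 0.32, 0.41 and 1.59. All arrays were below 0 for the first and above 0 for the second, and each passed alone (adjusted p = 3.44e-05 and 0.00335). With shCtBP2 the same probes agreed in sign, at -0.38 ± 0.14 and -0.47 ± 0.25.

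The checkpoint genes gave 0 calls of 5 with shCtBP2 (limma; 0 at an unadjusted p under 0.05), 2 of 3 with HIPP and 2 of 5 with P4, beside 13.5%, 48.7% and 31.9% of all genes. ATR, the kinase that answers single-stranded DNA, fell with HIPP (-0.54 ± 0.14, adjusted p = 6.01e-05) and P4 (-0.29 ± 0.16, adjusted p = 0.0127), the second lost without P4 replicate 3 (adjusted p = 0.0511). Its effector CHEK1 fell with HIPP (-0.54 ± 0.36, adjusted p = 0.00287), with means of -0.28 on slide 2 and -0.93 on slide 3, and was -0.17 with P4. CHEK2, which acts downstream of ATM, rose with P4 (0.46 ± 0.18, adjusted p = 0.00709) and was 0.35 with HIPP, where the interquartile filter removed it; it passed there without that filter (adjusted p = 0.0204). ATM had means between -0.04 and 0.00 and did not pass where tested, but these averaged 3 probes, 1 of which was above background on 0 arrays. The other ATM probes were at 0.28 and 0.11 with shCtBP2, -0.29 and 0.28 with HIPP, and 0.26 and -0.08 with P4, and did not pass alone (adjusted p from 0.086 to 0.83). TOPBP1, the activator of ATR, had means between -0.37 and -0.29 without passing (adjusted p = 0.175, 0.106 and 0.06), and passed in all 3 treatments with the replicate number as a block (0.0384, 0.0177 and 0.00859). With that block the shares of all genes rose as well, to 18.1%, 56.4% and 41.5%. For the endonuclease that cuts joined DNA, the catalytic subunit MUS81 fell with HIPP (-0.26 ± 0.24, adjusted p = 0.0443). Its partner EME1 rose with P4 (0.36 ± 0.19, adjusted p = 0.0187) and with HIPP (0.27 ± 0.27, adjusted p = 0.0468), the latter at -0.32 from uncorrected mean signals (median of all genes -0.39), and was -0.25 ± 0.17 with shCtBP2 (adjusted p = 0.129). MUS81 lost its call from the brightest probe (-0.21, adjusted p = 0.115) and without HIPP replicate 1, 2, 3 or 5 (adjusted p = 0.123, 0.0747, 0.178 and 0.0646). EME1 lost its call with HIPP without replicate 2, 4 or 5 (0.195, 0.106 and 0.133) and with normexp and loess (0.13, 0.151), and with P4 without replicate 1 or 5 (0.0522 and 0.0756).

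Replication protein A, the trimer that covers single-stranded DNA in both replication and repair, held the gene with the lowest adjusted p for a difference between HIPP and shCtBP2. RPA1, its large subunit, gave 0.44, 0.50, 0.22, 0.47 and 0.35 with shCtBP2, -0.50, -0.68, -0.55, -0.88 and -0.55 with HIPP, and -0.43, 0.00, -0.04, -0.23 and -0.10 with P4. The shCtBP2 arrays lay wholly above those of both compounds. RPA1 rose to 131.5% of control with shCtBP2 (0.40 ± 0.11, adjusted p = 0.00712) and fell to 64.6% with HIPP (-0.63 ± 0.16, adjusted p = 2.59e-05), and was -0.16 ± 0.17 with P4 (adjusted p = 0.162). RPA2, the middle subunit, fell with P4 (-0.39 ± 0.07, adjusted p = 0.00339) and was 0.04 and -0.14 otherwise. RPA3 was not tested in any treatment, with means of -0.13, 0.11 and 0.00. The RPA1 probe lies at chr17:1747916-1747975 (hg17).

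The difference between a compound and shCtBP2 was then tested for each gene. For HIPP minus shCtBP2, 9 of 27 genes passed (33.3%, beside 26.3% of all genes), 5 lower (18.5%, beside 14.1%) and 4 higher (14.8%, beside 12.2%) with HIPP. The lower ones were RPA1 (-1.03, 95% interval -1.28 to -0.77, adjusted p = 2.1e-05), RAD50 (-1.02, -1.42 to -0.63, adjusted p = 0.000809), CHEK1 (-0.69, adjusted p = 0.0109), ATR (-0.53, adjusted p = 0.00287) and FANCC (-0.47, adjusted p = 0.0319). The higher ones were RAD52 (0.66, 0.34 to 0.99, adjusted p = 0.00444), XRCC2 (0.55, adjusted p = 0.00391), WRN (0.54, adjusted p = 0.0294) and EME1 (0.52, adjusted p = 0.0175). From uncorrected mean signals, where the median of all genes was -0.13 and 4% of them passed, WRN, XRCC2 and EME1 changed sign (-0.14, -0.05 and -0.10) and RPA1 alone still passed. From the brightest probe, RAD50 (-0.61, adjusted p = 0.117) and XRCC2 (0.16, adjusted p = 0.623) did not pass. The count there was 11, beside 27.1% of all genes, as BRIP1 (1.19, adjusted p = 0.00293), FANCD2 (-0.62, 0.00266), FANCF (-0.91, 0.0145) and RAD54B (-0.75, 0.00713) were gained. With normexp and loess RAD50 (-0.41, adjusted p = 0.0844) and EME1 (0.28, adjusted p = 0.0641) did not pass, while XRCC2 was at 0.29 (0.0435). With each array's median set to 0 and no dye correction, the split was 3 higher and 6 lower, and WRN did not pass (0.44, adjusted p = 0.061). WRN lost its call without HIPP replicate 2 or 5 or shCtBP2 replicate 3 or 5 (adjusted p from 0.0577 to 0.0819), and FANCC without HIPP replicate 1, 2 or 3 or shCtBP2 replicate 1, 2, 3 or 5 (0.0524 to 0.0741). Without the probes annotated on the opposite strand, a setting added after seeing the data, the FANCC difference was -1.25 (adjusted p = 0.00275).

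For P4 minus shCtBP2, 5 of 27 passed (18.5%, beside 12.1% of all genes), 2 higher (7.41%, beside 6.15%) and 3 lower (11.1%, beside 5.96%). EME1 (0.61, 0.29 to 0.93, adjusted p = 0.0157) and RBBP8 (0.41, adjusted p = 0.0354) were higher with P4, while RPA1 (-0.55, -0.81 to -0.30, adjusted p = 0.00791), FANCE of the Fanconi core complex (-0.55, adjusted p = 0.0447) and RPA2 (-0.43, adjusted p = 0.0336) were lower. The median setting turned this split into 3 higher and 2 lower, without FANCE (adjusted p = 0.202) and RPA2 (0.055), normexp and loess lost FANCE (0.0547), and limma called 0 from uncorrected mean signals (0.156% of all genes). Without the interquartile filter 8 of 38 passed (12.5% of all genes), adding RAD51C (-0.90, adjusted p = 0.0034), BARD1 (-0.39, 0.0462) and PALB2 (0.58, 0.024). RAD51C then also passed for HIPP minus shCtBP2 (-0.67, adjusted p = 0.00932). EME1 and RPA1 kept their calls whichever array was left out. RBBP8, FANCE and RPA2 did not, and 2 or 3 genes passed without P4 replicate 1, 4 or 5 or without any 1 of the shCtBP2 arrays. As the 2 comparisons share the shCtBP2 arrays, their values are not independent.

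These differences were refitted with slide as a block. HIPP and shCtBP2 met on slide 3 alone (2 arrays each), and with slide as a fixed block 3 of the 9 differences passed (3 of 27 genes, beside 23.4% of all genes, which had been 26.3% without it): RPA1 (-1.18, adjusted p = 0.00235), RAD50 (-1.22, adjusted p = 0.0107) and CHEK1 (-1.24, adjusted p = 0.00312). RAD52 (0.73, adjusted p = 0.0565), XRCC2 (0.51, adjusted p = 0.0536), ATR (-0.47, adjusted p = 0.0989), WRN (0.45, adjusted p = 0.277) and EME1 (0.44, adjusted p = 0.186) kept their direction without passing, and FANCC shrank to -0.16 (adjusted p = 0.604). P4 and shCtBP2 shared no slide, so that this difference comes only through the HIPP arrays, and 0 of 5 passed with the block (limma; 2.1% of all genes), at 0.77 for EME1, 0.60 for RBBP8, -0.57 for RPA2, -0.70 for RPA1 and -1.08 for FANCE.

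**Figure D3:**
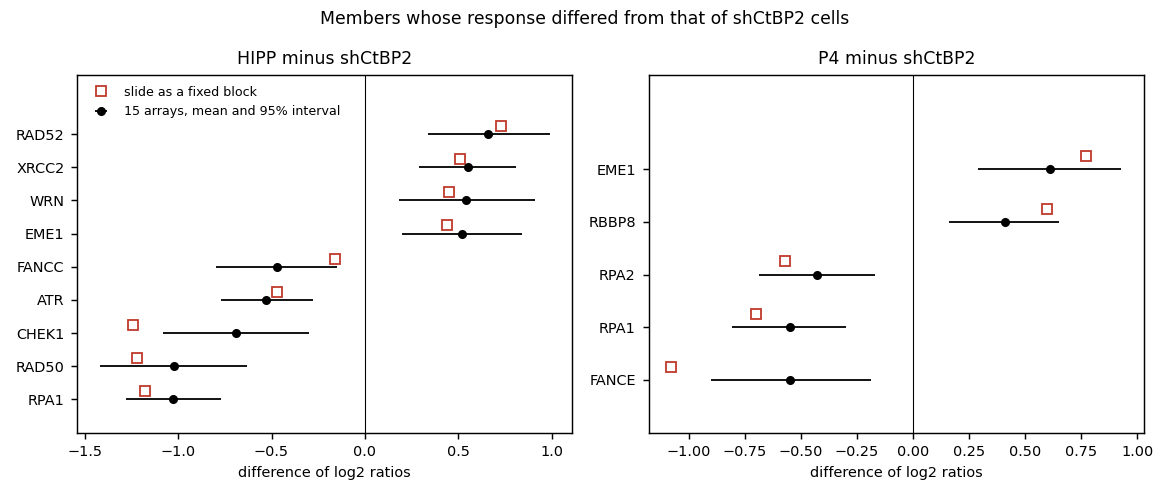
Difference of log2 ratios between a compound and shCtBP2 for the genes that passed limma's adjusted p of 0.05, with the 95% interval (15 arrays, black) and the value with slide as a fixed block (open squares). RPA1, RAD50 and CHEK1 lie at -1.03, -1.02 and -0.69 and further from 0 with the block, whereas FANCC moves from -0.47 to -0.16.

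Genes of related functions were counted from fixed lists, to be read beside the shares of all genes: 23.9% fell and 24.9% rose with HIPP, 14.8% and 17.1% with P4, and 6.95% and 6.59% with shCtBP2. Of other recombination and damage-checkpoint genes, 17 fell and 7 rose of 37 with HIPP, 13 fell and 4 rose of 40 with P4, and 7 fell and 1 rose of 39 with shCtBP2. RAD51B, of the strand exchange step, was at -1.39 and RNF168, a ubiquitin ligase at breaks, at 1.37 with HIPP; RNF8, which acts before RNF168, was at -1.03 with P4; GEN1, a junction resolvase, was at -0.73, BABAM2, of a BRCA1 complex, at -0.69 and RNF8 at -0.62 with shCtBP2. Of genes of non-homologous end joining, the competing route, 6 fell and 4 rose of 11 with HIPP, 3 and 3 of 9 with P4, and 1 and 0 of 11 with shCtBP2. In mismatch and excision repair, 16 fell and 4 rose of 24 with HIPP, 10 and 1 of 26 with P4, and 4 and 1 of 20 with shCtBP2. Named there are the repair polymerase POLB (-1.64 with HIPP, -1.24 with P4), the damage verifier XPA (-1.51 with HIPP), the flap nuclease FEN1 (-0.93 with P4), and the helicases ERCC3 (-0.66) and ERCC6 (0.68) with shCtBP2.

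Genes of replication and mitosis were counted likewise, beside the same shares of all genes (23.9% lower with HIPP, 14.8% with P4 and 6.95% with shCtBP2). In the replication list 28 fell and 4 rose of 41 with HIPP, 18 and 1 of 37 with P4, and 7 and 1 of 32 with shCtBP2; the polymerase subunit POLE2 was at -1.49 and -1.04 with the compounds and cyclin A (CCNA2) at -0.61 with shCtBP2. In the mitosis list 18 of 22 fell with HIPP, 18 of 22 with P4 and 8 of 17 with shCtBP2, and 0 rose in any treatment. TOP2A was at -1.68 and -1.11, MKI67 at -1.49 and -1.03 and BUB1B at -1.37 and -0.96 with HIPP and P4, MAD2L1 at -1.37 with HIPP, and BUB1, BUB1B and CENPA at -0.74, -0.72 and -0.60 with shCtBP2. The median log2 ratio of the tested mitosis genes was -0.77, -0.59 and -0.32 for HIPP, P4 and shCtBP2, where the recombination genes had -0.26, -0.13 and -0.04. The part of cell cycle state in the recombination values was not tested, and in RNA of whole cultures fewer cells in a phase and less RNA per cell cannot be told apart.

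**Figure D4:**
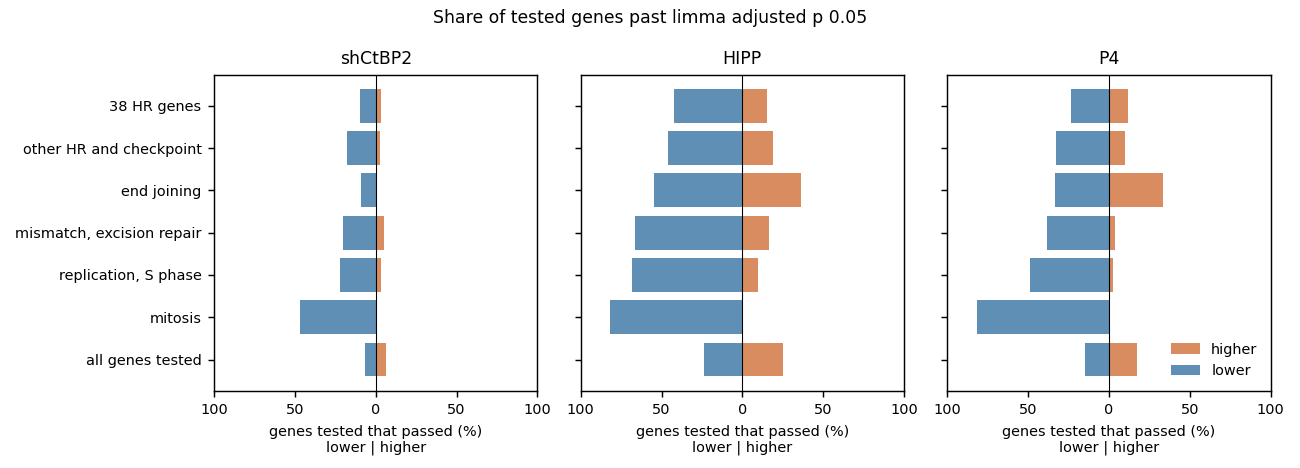
Share of tested genes past limma's adjusted p of 0.05, lower to the left and higher to the right, in percent, for the 38 recombination (HR) genes, the related lists and all genes tested. With HIPP 42.4% of the recombination genes were lower and 15.2% higher, against 23.9% and 24.9% of all genes and 81.8% and 0% of the mitosis genes.

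The promoters were read from RefSeq (GRCh38.p14) as the 250 bases before the annotated start, and 33 of the 38 genes had one. They are shown for RAD50 and EXO1, which fell with both compounds, for EME1, which was called higher with both (not from uncorrected mean signals), and for RPA1, which moved in opposite directions with shCtBP2 and HIPP. Capitals mark a CCAAT box.
RAD50: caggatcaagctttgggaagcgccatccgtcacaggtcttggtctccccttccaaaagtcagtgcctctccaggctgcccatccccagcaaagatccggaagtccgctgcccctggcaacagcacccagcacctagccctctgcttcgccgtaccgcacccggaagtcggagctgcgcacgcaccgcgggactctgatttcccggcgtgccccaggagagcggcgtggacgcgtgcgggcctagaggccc
EXO1: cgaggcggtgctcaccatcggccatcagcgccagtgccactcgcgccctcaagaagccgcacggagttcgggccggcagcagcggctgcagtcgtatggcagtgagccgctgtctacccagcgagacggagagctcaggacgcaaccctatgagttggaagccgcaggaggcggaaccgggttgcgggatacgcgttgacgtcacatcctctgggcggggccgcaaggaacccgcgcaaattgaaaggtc
EME1: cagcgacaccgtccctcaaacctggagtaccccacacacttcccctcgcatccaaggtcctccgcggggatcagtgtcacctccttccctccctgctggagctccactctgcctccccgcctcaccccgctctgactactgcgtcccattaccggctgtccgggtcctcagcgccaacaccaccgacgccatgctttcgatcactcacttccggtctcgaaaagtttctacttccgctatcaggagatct
RPA1: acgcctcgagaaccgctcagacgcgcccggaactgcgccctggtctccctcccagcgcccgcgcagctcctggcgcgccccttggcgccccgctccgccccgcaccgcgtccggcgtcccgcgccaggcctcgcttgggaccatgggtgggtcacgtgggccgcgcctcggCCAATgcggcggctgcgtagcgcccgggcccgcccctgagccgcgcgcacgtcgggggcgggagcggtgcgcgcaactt
The windows are chr5:132556727-132556976, chr1:241847954-241848203, chr17:50372979-50373228 and chr17:1829755-1830004, all on the plus strand. On both strands, CCAAT was found in 14 of the 33 windows (42.4%, beside 33% of 27305 promoters of the same length). An E2F motif (TTTCCCGC, TTTCGCGC, TTTGCCGC or TTTGGCGC) was found in 2, FANCA and FANCC (6.06%, beside 2.79%), and the cell cycle element TTTGAA in 3 (9.09%, beside 13.6%). No motif contains another. RAD50, RAD51C, BARD1, FANCD2, ATR and EXO1, which were called lower with both compounds, held none of these letters in their windows. The same was true of EME1, XRCC2, FANCG and FANCL, called higher with HIPP, and of BRCA2, FANCB, FANCE and TOPBP1, which passed in no treatment. Lack of these motifs was thus not particular to the genes called lower.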

How the data were processed

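Per the labels, cRNA of treated cells (Cy5) and of control cells (Cy3) was hybridised to Agilent Whole Human Genome 4x44K arrays. The authors extracted spot intensities with Feature Extraction (version 9.5.3.1), which corrected background and dye differences and gave hg17 probe positions. The value table that the authors deposited holds log10 ratios of Cy5 over Cy3, which match those of the scanner files.

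The log2 ratio of the corrected intensities was taken per spot, flagged spots (78 to 265 per array) were left out, and spots and then probes of a gene were averaged. Probes were named through their accessions and RefSeq tables. Genes needed at least 3 of 5 arrays, and the 11% with the lowest interquartile range were removed. All 15 arrays entered 1 limma fit (version 3.58.1, R 4.3.3) with an adjusted p (Benjamini-Hochberg over all genes tested) of 0.05. Single probes and the 3′ minus 5′ difference were fitted likewise, after the data had been seen, but without the interquartile filter. Probes not above background on at least 3 arrays of the treatment were left out (31476 of 41000 were tested with HIPP). Scripts were tested on simulated data. The methods name a Student's t-test, an alternative here.

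The genes and lists were chosen with earlier results of these data known. By rule, BRCA1, BRCA2 and genes past both thresholds were to be given in full (RAD52), with up to 4 genes of each related list; the other genes given per array, and the probes and promoters shown, were picked after their values were seen. The number of arrays limits the precision.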

Additional observations from a re-analysis of the deposited data

Results flagged for a closer look

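The response of single genes differed between a compound and the knockdown. Between HIPP and shCtBP2 the log2 ratios differed for RPA1 (-1.03), RAD50 (-1.02), CHEK1 (-0.69), ATR (-0.53) and FANCC (-0.47), lower with HIPP, and for RAD52 (0.66), XRCC2 (0.55), WRN (0.54) and EME1 (0.52), higher with HIPP, of which those of XRCC2, WRN and EME1 changed sign from uncorrected mean signals. Between P4 and shCtBP2 they differed for RPA1 (-0.55), FANCE (-0.55) and RPA2 (-0.43), lower with P4, and for EME1 (0.61) and RBBP8 (0.41), higher with P4. With slide as a fixed block, the differences of RPA1, RAD50 and CHEK1 between HIPP and shCtBP2 were those that still passed; that of RAD50 was lost with normexp and loess (-0.41, adjusted p = 0.0844) and from the brightest probe (-0.61, adjusted p = 0.117).

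Of 114 sets of 5 arrays (38 genes in 3 treatments), 5 held an array far from the others by Dixon's criterion (threshold 0.71), where chance alone gives about 1 set in 20. XRCC2 was at 0.20 on shCtBP2 replicate 1, whose group was otherwise below 0, at 0.23 on HIPP replicate 2, below the rest of its group, and at -0.31 on P4 replicate 5, whose group was otherwise above 0. FANCG was at 0.32 on shCtBP2 replicate 5, and TOPBP1 at -0.76 on shCtBP2 replicate 2.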

How the results depend on the processing

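Counts of recombination genes past the adjusted threshold were within 1.5 times the reported ones (4 with shCtBP2, 19 with HIPP, 12 with P4) under the alternatives tried, except as follows. Uncorrected mean signals, added after seeing the data, gave 1 and 2 with shCtBP2 and P4 (39.4% and 45.1% of all genes). Fits of only the arrays compared gave 8 and 7 (19.9% and 17.6% of all genes). The methods' t-test gave 4 with HIPP (RAD50, NBN, ATR and RPA1) and 1 with P4 (RAD50) after adjustment, where 18.6% and 4.61% of all genes passed. Past both thresholds, RAD52 was lost with uncorrected mean signals and with normexp and loess (0 each), and RAD54L was gained with HIPP (1) from mean signals. Of the differences, HIPP minus shCtBP2 (9) became 1 from mean signals (4% of all genes) and 3 with slide as a fixed block (23.4%). P4 minus shCtBP2 (5) became 0 with either (0.156% and 2.1%), 8 without the interquartile filter (12.5%) and 8 without dim spots (25.5%). Without any 1 array, the counts ran from 3 to 4, 14 to 19 and 8 to 13, past both thresholds from 0 to 1 (shCtBP2), 0 to 0 (HIPP) and 0 to 1 (P4, DMC1 without replicate 2 or 3), and for the differences from 7 to 10 and 2 to 5. P4 minus shCtBP2 fell to 2 or 3 without P4 replicate 1, 4 or 5 or any shCtBP2 array.

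With uncorrected mean signals, the ratio with HIPP turned to -0.05 for WRN, -0.15 for XRCC2, -0.32 for FANCG, -0.29 for FANCL and -0.32 for EME1, and HIPP minus shCtBP2 to -0.14 for WRN, -0.05 for XRCC2 and -0.10 for EME1. The brightest probe turned MRE11 to 0.18 and NBN to 0.23. The cause of these changes was not tested. The labels do not say that a replicate number marks a shared batch. Correlations of same-numbered pairs ran from -0.028 to 0.471, and 7 of 15 arrays correlated best with their own number. As 13 and not all of 15 pairs were over 0.1, the numbers were not used to pair the arrays in the main fit. This rule does not settle whether a replicate number marks a shared effect. A replicate block kept all calls in the 3 treatments and gave 5, 20 and 15 (adding TOPBP1 to each, and FANCE and WRN with P4), 10 and 6 for the differences, and 1, 0 and 0 past both thresholds. Of all genes, 18.1%, 56.4% and 41.5% passed with this block, and 31.4% and 16.2% for the differences, so that calls rose throughout the array. Dim probes, such as those in DMC1, ATM, MRE11 and FANCF, limit single ratios.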
